A study of Mus musculus with 6 samples.

Results

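Processed pseudogenes are copies of messenger RNA that were written back into the genome. This account concerns the 2461 processed pseudogenes that had a mean of 10 or more scaled reads over 6 libraries of mouse fetal heart RNA. They were chosen from 9316 genes of that GENCODE M21 class in a table of reads per 25-base bin, after the bins of each gene had been summed. Of the 9316, 3626 were listed at 0 in every library. The table holds 48505 genes in all, of which 18496 of any class reached the same mean. Only the level over all 6 libraries chose the members, so that their levels are a description.

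The libraries were sequenced from input RNA of wild-type FVB/NJ fetal hearts of both sexes, pooled, with 3 pools per group. The nano-TiO2 pools came from dams that inhaled nano-sized titanium dioxide aerosol at a target of 12 mg per cubic metre in whole-body chambers. Sham pools came from dams that breathed filtered air in the same way. Dams were 10 weeks old, sessions of 360 minutes ran on 6 non-consecutive days over 8 days from gestational day 5, and hearts were collected on gestational day 15. The study used 14 dams, and the number of litters per pool is not given in the sources used here, so that the tests weigh differences against variation from pool to pool and nothing wider. In such bulk samples fewer cells of a type and less RNA per cell cannot be told apart.

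A processed pseudogene carries the exons of its parent joined together, without introns and usually without the parent's promoter. Most have gathered mutations and make no protein, although some are transcribed from a promoter near the place of insertion. Parents tend to be genes with abundant messenger RNA in the germ line, such as those of ribosomal proteins, the structural proteins of the ribosome, and of Gapdh, the glycolytic enzyme glyceraldehyde-3-phosphate dehydrogenase. Because a young copy is nearly the same sequence as its parent, a short read can match both. The comparison therefore asks whether the pseudogenes moved apart from the genes they resemble. The table does not show from which copy a read came, and the part of reads shared between copies in any single value was not tested.

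A source gene was assigned to each member by sequence: the spliced protein-coding gene whose transcript gave its best BLAST alignment. A source was found for 2449 of the 2461 members, and 807 different genes served as sources. Ribosomal protein genes were the source of 830 members, Gapdh of 156 and other genes of 1463. The symbols and synonyms name a parent for 392 members, and for 349 of these the named parent and the source were the same gene. By symbol alone the families were smaller, with 199 members named for ribosomal proteins and 2 for Gapdh, because most members carry a Gm number.

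Stretches of Gapdh and of its copies show how closely they resemble each other, and where they do not. The lines below give 197 coding bases of Gapdh (chr6:125161715-125166467, minus strand, GRCm38 in GENCODE M21), from coding base 347 to 543, with the same stretch of Gm11185 (chr4:83193988-83194994, plus strand, 95.3% identical over its aligned length) and Gm15593 (chr6:18144734-18145741, plus strand, 92.1% identical). Capitals mark the bases that differ from Gapdh. The pseudogene with the highest level of this family, Gm7336 (chr7:51746647-51747878, plus strand, 99.8% identical), has the same 197 bases as Gapdh and is not printed.
Gapdh: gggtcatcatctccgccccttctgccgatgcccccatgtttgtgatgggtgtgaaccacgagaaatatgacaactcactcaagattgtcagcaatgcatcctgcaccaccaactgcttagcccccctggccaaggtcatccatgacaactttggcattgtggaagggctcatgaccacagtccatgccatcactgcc
Gm11185: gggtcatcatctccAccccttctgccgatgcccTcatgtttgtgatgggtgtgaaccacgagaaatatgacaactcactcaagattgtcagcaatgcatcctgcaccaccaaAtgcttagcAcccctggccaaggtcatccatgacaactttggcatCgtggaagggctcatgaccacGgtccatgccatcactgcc
Gm15593: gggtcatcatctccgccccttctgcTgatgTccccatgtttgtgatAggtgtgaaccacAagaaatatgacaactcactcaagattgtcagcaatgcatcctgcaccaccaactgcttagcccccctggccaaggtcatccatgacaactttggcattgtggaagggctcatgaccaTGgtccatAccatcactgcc
Gm11185 differs at 6 bases in this stretch, and its longest run without a difference is 78 bases. Gm15593 differs at 7 bases, all outside a run of 117 bases that is the same as in Gapdh.

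Gm7336 was picked for the highest mean of the family, Gm11185 for the highest mean near 95% identity and Gm15593 for its unchanged run, so that the order of their levels is no result. Gm7336 had 11731, 12944 and 12664 scaled reads in the nano-TiO2 libraries, against 20182, 19767 and 19642 in the sham libraries. Gm11185 had 782, 818 and 918 scaled reads in the nano-TiO2 libraries, against 1303, 1520 and 1187 in the sham libraries. Gm15593 had 196, 195 and 170 scaled reads in the nano-TiO2 libraries, against 307, 361 and 214 in the sham libraries. In each of the 3, every nano-TiO2 library was below every sham library. Gapdh itself had 8118, 8617 and 8613 scaled reads in the nano-TiO2 libraries, against 13690, 13330 and 13055 in the sham libraries. The log2 fold changes, here and below of nano-TiO2 over sham on the scale of log2(value + 1), were −0.68 ± 0.11 for Gm7336, −0.67 ± 0.14 for Gm11185, −0.62 ± 0.22 for Gm15593 and −0.66 ± 0.11 for Gapdh (± SE, n = 3 libraries per group). Adjusted p-values from limma were 0.00529, 0.0112, 0.0594 and 0.00529 in that order of genes, so that the change of Gm15593 did not pass the threshold of 0.05.

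A second pair shows a copy that went another way than its source. The lines below give 100 coding bases of Rps2, a protein of the small ribosomal subunit (chr17:24718116-24721929, plus strand, GRCm38, coding bases 496 to 595), and of Gm14276 (chr2:156994173-156994892, minus strand), with bases that differ from Rps2 in capitals. Rps2-ps13 on chromosome X, 99.2% identical to Rps2, does not differ from it in this stretch.
Rps2: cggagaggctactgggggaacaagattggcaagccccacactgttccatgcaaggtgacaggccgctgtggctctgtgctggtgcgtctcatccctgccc
Gm14276: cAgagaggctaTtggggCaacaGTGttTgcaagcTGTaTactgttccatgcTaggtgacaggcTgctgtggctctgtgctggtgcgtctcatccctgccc
Gm14276 differs at 13 of the 100 bases and shares no run of 50 bases with Rps2 anywhere along its length. It had 33.7, 18.4 and 27.6 scaled reads in the nano-TiO2 libraries, against 6.77, 6.47 and 5.46 in the sham libraries. Rps2-ps13 had 13809, 15736 and 16218 scaled reads in the nano-TiO2 libraries, against 22085, 22951 and 19577 in the sham libraries. Both groups of values were without overlap, in opposite directions. Gm14276 rose by a log2 fold change of 1.89 ± 0.40 (± SE, limma adjusted p = 0.0108), whereas Rps2-ps13 fell with −0.50 ± 0.12 (adjusted p = 0.0186) and Rps2 with −0.51 ± 0.12 (adjusted p = 0.0171; n = 3 libraries per group). Neither fall stood when a trend on gene length and GC content was removed: Rps2-ps13 turned to 0.093 (adjusted p = 0.647) and Rps2 to −0.02 (adjusted p = 0.940). Rps2-ps13 also lost its call without nano-TiO2 replicate 1, sham replicate 1 or sham replicate 2 (adjusted p = 0.0853, 0.0696 and 0.0744), and Gm14276 without nano-TiO2 replicate 1 or 3 (adjusted p = 0.0547 and 0.0502).

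The libraries held 15735142 to 27368608 reads (nano-TiO2) and 24555746 to 29740017 reads (sham) in the table, recovered from the scaled values. The 2461 members took 6.02, 6.97 and 6.37% of the scaled reads in the nano-TiO2 libraries, against 7.37, 6.05 and 6.86% in the sham libraries, so that their share of the table overlapped between groups. Transcripts of heart muscle, such as Myh6, were abundant in all 6 libraries. Haemoglobin genes took 9.40 to 16.9% of the table in the nano-TiO2 libraries and 17.3 to 33.8% in the sham libraries. The sum of 4 liver genes was highest in sham replicate 2, at 11627 scaled reads against 50.0 to 979 elsewhere, and that of 2 lung surfactant genes was highest in nano-TiO2 replicate 3, at 23395. With mitochondrial, haemoglobin and rRNA genes left out of the test below, 681 pseudogenes fell and 29 rose, against 676 and 28 with them. The authors' scaling was kept there, so that no member's values changed and an effect of the haemoglobin share could not show. The part of the haemoglobin, liver and lung transcripts in the results was not tested beyond the leaving out of libraries.

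In the authors' scaling, a larger share of processed pseudogenes than of all genes fell after nano-TiO2 inhalation, and a smaller share once a trend on gene length and GC content was removed. The difference between these shares was not tested. Of the 2461 members, 676 fell (27.5%) and 28 rose (1.14%) at an adjusted p under 0.05 in limma across all 18496 genes, and 1757 did not pass. Over all genes tested, 12.6% fell and 14.9% rose. The median log2 fold change of the members was −0.47, against −0.04 over all genes and 0.02 over protein-coding genes. In 1138 members (46.2%) every nano-TiO2 library was below every sham library, against 23.0% of all genes, and in 128 (5.20%) every nano-TiO2 library was above, against 22.0% of all genes. With that trend removed, 48 members fell (1.95%) and 36 rose (1.46%), with a median of −0.07, while 6.07% of all genes fell and 2.75% rose, with a median of −0.03. The count of falls also moved by over 1.5 times with single libraries: it was 317 without nano-TiO2 replicate 1, 353 without nano-TiO2 replicate 3, 346 without sham replicate 1 and 268 without sham replicate 2. The count of rises was 2, 8, 10 and 7 without the same libraries in that order. There were 180 rises and no falls in limma (36 lower at an unadjusted p under 0.05) with library totals as the only scaling, where the median gene stood at 0.42. Without sham replicate 2 and nano-TiO2 replicate 3, the libraries highest in liver and lung genes, the median was −0.42, no gene passed in limma and 569 members were lower at an unadjusted p under 0.05, against 32 higher.

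**Figure D1:**
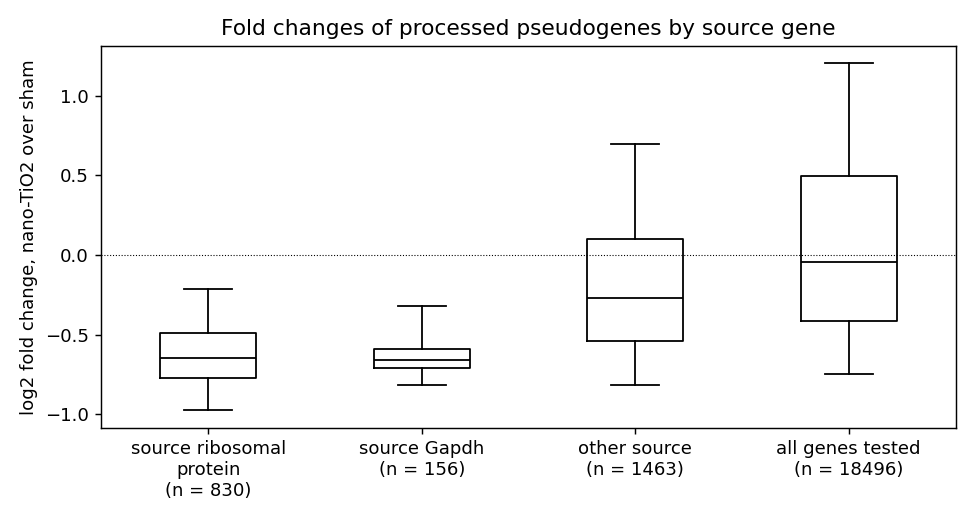
Log2 fold changes (nano-TiO2 over sham, vertical axis) of processed pseudogenes grouped by source gene, beside all genes tested (box, quartiles with the median line; whiskers, 5th to 95th percentile). The medians are −0.65 for ribosomal protein sources, −0.66 for Gapdh, −0.27 for other sources and −0.04 for all genes; after removal of a trend on length and GC content the 3 source medians are −0.15, −0.21 and 0.045.

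The fall was found most often among copies of ribosomal protein genes and of Gapdh. Of the 830 members with a ribosomal protein source, 407 fell (49.0%) and 1, Gm14276, rose, with a median of −0.65. Of the 156 members with Gapdh as source, 76 fell (48.7%), with a median of −0.66, and 154 had a negative value. None of the 156 rose in limma, edgeR or DESeq2, and none was higher at an unadjusted p under 0.05 in any of the 3. Among the 1463 members with another source, 192 fell (13.1%) and 27 rose (1.85%), with a median of −0.27. All genes tested had 12.6% falls and 14.9% rises, so that the share of falls in this group was near that of all genes. Of the 12 without a source, 1 fell. Using symbols in place of sequence, 118 of 199 members named for ribosomal proteins fell and 81 did not pass, with a median of −0.65, and 39 of 191 named for other parents fell and 4 rose. The difference between these families was not tested. Removing the length and GC trend gave medians by source of −0.15 for ribosomal proteins, −0.21 for Gapdh and 0.045 for other genes, and with library totals −0.18, −0.19 and 0.19, so that other sources turned sign.

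Genes of the parent families moved in the same direction in the authors' scaling. Of 95 cytosolic ribosomal protein genes, 79 fell (83.2%) and 3 rose (3.16%), with a median of −0.67, against 12.6% and 14.9% of all genes tested. Of 17 glycolysis genes tested, 10 fell (58.8%) and 7 did not pass, with a median of −0.52. Among the 801 source genes tested, 274 fell (34.2%) and 83 rose (10.4%), with a median of −0.30.

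Summed over copies, the 156 Gapdh pseudogenes held 187673, 199604 and 200850 scaled reads in the nano-TiO2 libraries, against 312176, 318407 and 299586 in the sham libraries. Every nano-TiO2 sum was below every sham sum in this scaling. As a share of each library's table the sums overlapped, at 0.891, 1.10 and 0.958% in the nano-TiO2 libraries, against 1.24, 1.00 and 1.12% in the sham libraries. Pseudogenes with ribosomal protein sources summed to 510443 ± 33062 scaled reads in the nano-TiO2 libraries and 783370 ± 38082 in the sham libraries (SD, n = 3 each). Those with other sources summed to 581074 ± 13485 scaled reads in the nano-TiO2 libraries and 773610 ± 12101 in the sham libraries (SD, n = 3 each). As shares of the table both overlapped as well: ribosomal protein copies held 2.31, 2.74 and 2.61% in the nano-TiO2 libraries, against 3.11, 2.59 and 2.80% in the sham libraries, and other copies 2.81, 3.12 and 2.79% in the nano-TiO2 libraries, against 3.02, 2.45 and 2.93% in the sham libraries. Copies with ribosomal protein sources made up 41.0% and those with other sources 42.9% of the reads of all members.

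**Figure D2:**
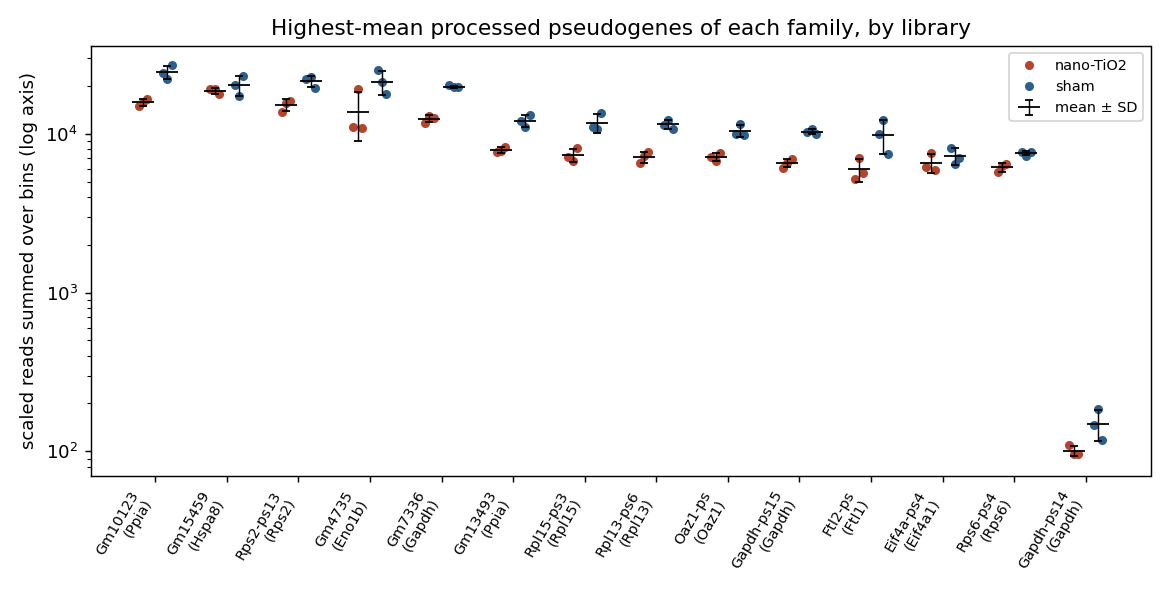
Scaled reads (log axis) in each library of the highest-mean processed pseudogenes of each family, with the source gene in brackets; points are libraries and black bars the mean ± SD of 3 libraries. Nano-TiO2 libraries lie below sham libraries without overlap in all but Gm15459, Gm4735 and Eif4a-ps4.

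Of these highest-mean pseudogenes, 9 fell, and the falls given below are those of the authors' scaling. With the length and GC trend removed, none of the 9 passed in limma or reached an unadjusted p under 0.05. Their values then ran from −0.23 to 0.14, and 4 turned sign: Rps2-ps13 to 0.093, Rpl13-ps6 to 0.016, Oaz1-ps to 0.14 and Ftl2-ps to 0.052. Of the sources, Gapdh, Ppia, Rpl15 and Rpl13 still passed with that trend removed, whereas Rps2, Oaz1 and Ftl1 did not. With a term for replicate number added as well, Rpl13 stood at −0.53 (limma adjusted p = 0.0579) beside 0.016 for Rpl13-ps6. With single libraries left out, 6 to 9 of the 9 passed, the fewest without sham replicate 2.

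The pseudogene with the highest mean was Gm10123, whose 490 bases are identical to Ppia, the gene of the protein-folding enzyme cyclophilin A. It had 15016, 15807 and 16569 scaled reads in the nano-TiO2 libraries, against 24183, 22197 and 26975 in the sham libraries, without overlap. It fell by 0.63 on the log2 scale (SE 0.12, limma adjusted p = 0.00814), as did Ppia itself (−0.63, adjusted p = 0.00751). Of 31 members with Ppia as source, 21 fell, and all 31 had negative values. Per bin, Gm10123 stood at 589% of the level of Ppia. In total its mean of 20125 scaled reads was below the 25172 of Ppia, whose level per bin is averaged over more bins.

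Gm15459 is 99.7% identical to Hspa8, the constitutive heat shock cognate chaperone. Its values were 19160, 19207 and 17785 scaled reads in the nano-TiO2 libraries, against 20207, 17312 and 23063 in the sham libraries. The groups overlapped, and its log2 fold change of −0.10 did not pass the test (limma adjusted p = 0.595), nor did that of Hspa8, also −0.10. Gm4735, whose best alignment was to the enolase gene Eno1b, had 11060, 19208 and 10880 scaled reads in the nano-TiO2 libraries, against 25134, 21162 and 17773 in the sham libraries. Nano-TiO2 replicate 2 was within the range of the sham libraries. Its value of −0.68 narrowly missed the threshold (adjusted p = 0.0520), and that of Eno1b, −0.68, narrowly passed it (adjusted p = 0.0491).

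Among copies named for ribosomal proteins, Rpl15-ps3 had 7114, 6792 and 8112 scaled reads in the nano-TiO2 libraries, against 11025, 10676 and 13604 in the sham libraries. It is identical in sequence to Rpl15, a protein of the large subunit, over its 615 bases, and fell by 0.68 on the log2 scale beside −0.65 for Rpl15. Rpl13-ps6 fell by 0.68 beside −0.69 for Rpl13, also of the large subunit. Rps6-ps4 stood apart from these: it had 5737, 6293 and 6433 scaled reads in the nano-TiO2 libraries, against 7663, 7297 and 7734 in the sham libraries. Its groups did not overlap, but its value of −0.30 did not pass (limma adjusted p = 0.0694). Rps6, the small-subunit protein phosphorylated downstream of mTOR signalling, stood at −0.31 and likewise did not pass (adjusted p = 0.0629).

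Of the copies named for other genes, Oaz1-ps resembles Oaz1, the gene of ornithine decarboxylase antizyme, and fell by 0.54 beside −0.55 for Oaz1. Ftl2-ps, a copy of the ferritin light chain gene Ftl1, fell by 0.71, as did Ftl1. Eif4a-ps4, a copy of the translation initiation helicase gene Eif4a1, had a value of −0.14 and Eif4a1 one of −0.12, and neither passed. Both members named for Gapdh were lower in all 3 nano-TiO2 libraries. Gapdh-ps15, on chromosome Y, had 6124, 6567 and 6902 scaled reads in the nano-TiO2 libraries, against 10218, 10703 and 9985 in the sham libraries, and fell by 0.66. Gapdh-ps14, with 12.1% of its 50-base windows found unchanged in spliced protein-coding transcripts, had a value of −0.54 that did not pass (limma adjusted p = 0.0911).

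Over all pairs, likeness in sequence went with likeness in fold change in the authors' scaling. The pairs were not compared as a set with the length and GC trend removed. Over 2359 pairs of a member with a source aligned over 70% or more of its length and at a mean of 10 or more, Pearson's r between the 2 log2 fold changes was 0.86. By class of identity, r was 0.35 over 161 pairs under 90%, 0.81 over 615 pairs from 90 to under 95%, 0.91 over 839 pairs from 95 to under 98% and 0.95 over 744 pairs of 98% or more. The median absolute difference between the fold change of member and source was 0.22, 0.13, 0.08 and 0.04 in the same order of classes. These are descriptions with no test: the pairs share libraries, several members share a source, and diverged copies had fewer reads, with a median mean of 22.9 scaled reads in the lowest class and 524 in the highest. Among pairs whose member had a mean of 100 or more, r was 0.53 over 14 pairs under 90% identity, and 0.94, 0.96 and 0.98 in the other 3 classes. The median absolute difference in these deeper pairs varied less, at 0.053, 0.062, 0.046 and 0.033 from the lowest to the highest class, and 78.6% of the 14 pairs under 90% identity lay within 0.1 of their source.

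**Figure D3:**
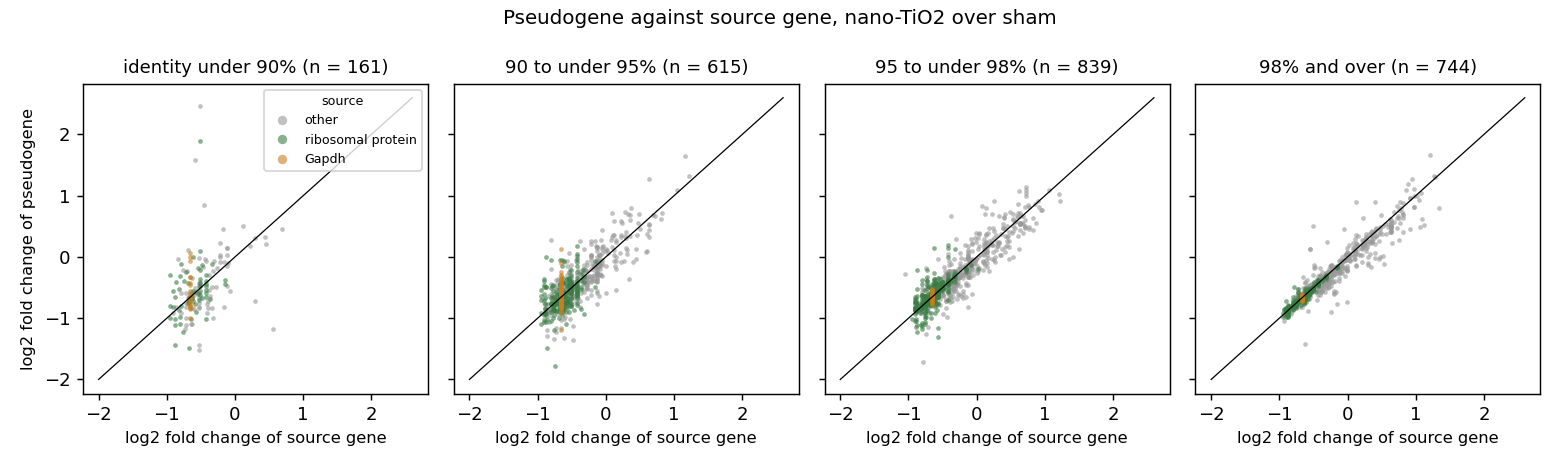
Log2 fold change of each processed pseudogene (vertical) against that of its source gene (horizontal) in 4 classes of identity, for 161, 615, 839 and 744 pairs; colours give the source family and the line marks equal values. Points draw closer to the line from left to right, with r of 0.35, 0.81, 0.91 and 0.95.

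Level went with likeness as well. Per 25-base bin, the median member stood at 1.11% of the level of its source below 90% identity, at 3.64% from 90 to under 95%, at 16.9% from 95 to under 98% and at 88.6% at 98% or more. In 400 members the level per bin was above that of the source, and 339 of these had an identity of 98% or more. The level of a source is averaged over all bins of its gene, which can span more bases than the copy carries. A higher level per bin therefore need not mean more reads in total. There were 90 members identical to the source over the aligned length. Among Gapdh copies alone, the 35 members at 98% or more had 828 to 16155 scaled reads and held 87.1% of the family's reads. All 35 fell, with log2 fold changes from −0.72 to −0.60. Of the 36 Gapdh copies from 95 to under 98%, 30 fell, of the 65 from 90 to under 95%, 11 fell, and of the 20 below 90%, none passed in limma, edgeR or DESeq2, although 6 of the 20 were lower at an unadjusted p under 0.05 in limma. The medians of these 4 classes were close to each other, at −0.66, −0.65, −0.63 and −0.67, while the median standard error was 0.11, 0.17, 0.28 and 0.40.

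**Figure D4:**
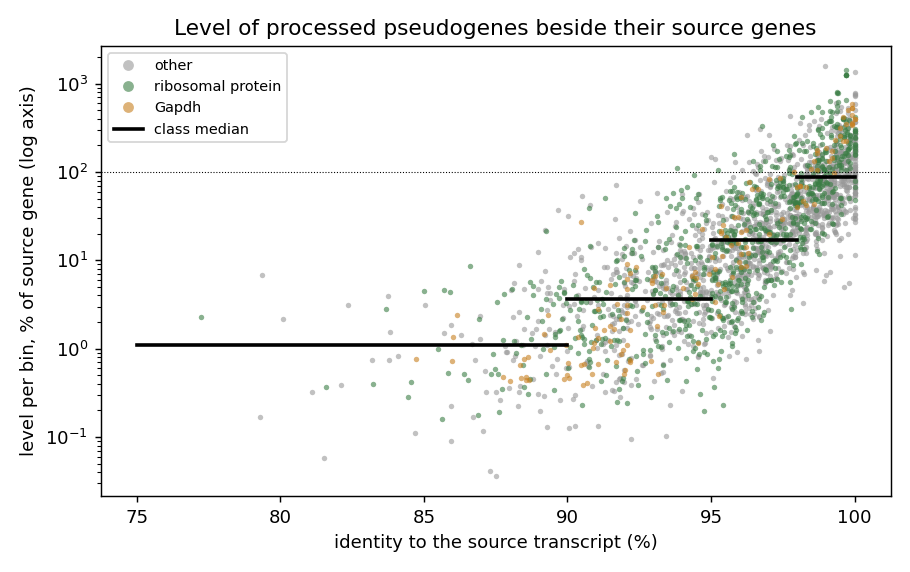
Level per bin of each processed pseudogene as a percentage of its source gene (log axis) against identity to the source transcript, coloured by source family; black lines are class medians and the dotted line marks equal levels. Class medians are 1.11, 3.64, 16.9 and 88.6% from the lowest to the highest class of identity. The level of a source is averaged over all bins of its gene, which can span more bases than the copy carries.

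In the authors' scaling, copies of a single source had fold changes near that of the source, whichever its sign. Among 43 sources with 10 or more members, the median of the members was within 0.1 of the source in 38, and the largest difference was 0.19, for Phgdh, an enzyme of serine synthesis. All 58 members with Rpl21 as source had negative values and 42 fell, with a median of −0.76 beside −0.76 for Rpl21. The 24 members with Hnrnpa3 as source, a gene of an RNA-binding protein, all had positive values. Of these 24, 4 rose, and the median of the 24 was 0.51. Over all genes tested, 14.9% rose and 12.6% fell, so that the share of rises among these 24 was near that of all genes. Hnrnpa3 had 1481, 1224 and 1440 scaled reads in the nano-TiO2 libraries, against 827, 899 and 939 in the sham libraries, without overlap, and rose by 0.63 (limma adjusted p = 0.0106).

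No member passed in either direction in limma among the 71 copies of Hmgb1, which encodes a DNA-binding chromatin protein, or the 17 copies of Eef1a1, a translation elongation factor. The medians were −0.19 beside −0.13 for Hmgb1 and −0.11 beside −0.11 for Eef1a1, and neither source passed (adjusted p = 0.567 and 0.584). In limma, 1 Hmgb1 copy was lower at an unadjusted p under 0.05 and no Eef1a1 copy was, and edgeR and DESeq2 likewise called none of either set.

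Within a copy, reads lay unevenly, and often near the longest stretch without a difference. Of the members with a mean of 30 or more scaled reads, 175 from 98 sources were suited to this comparison: in them a single run of 70 or more bases identical to the source lay 120 or more bases from either end and the next run was at most 60% as long. In 95 of the 175 (54.3%) the highest bin was numbered within the 100 bases 5′ of the first base of that run. This window held a median of 11.4% of the bins of a member and 44.1% of its scaled reads, and 154 members had a larger share of reads than of bins there. In Gm15593, whose run of 117 bases is shown above, the window held 87.5% of the scaled reads in 10.0% of the bins. In Gm6977, a copy of the ferritin heavy chain gene Fth1, it held 95.6% of the reads in 20.0% of the bins. The window, its place 5′ of the run and the direction of bin numbers on the minus strand were chosen after these values were seen, and the table gives no base position for a bin, so that the offset from the run itself has no scale of its own.

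**Figure D5:**
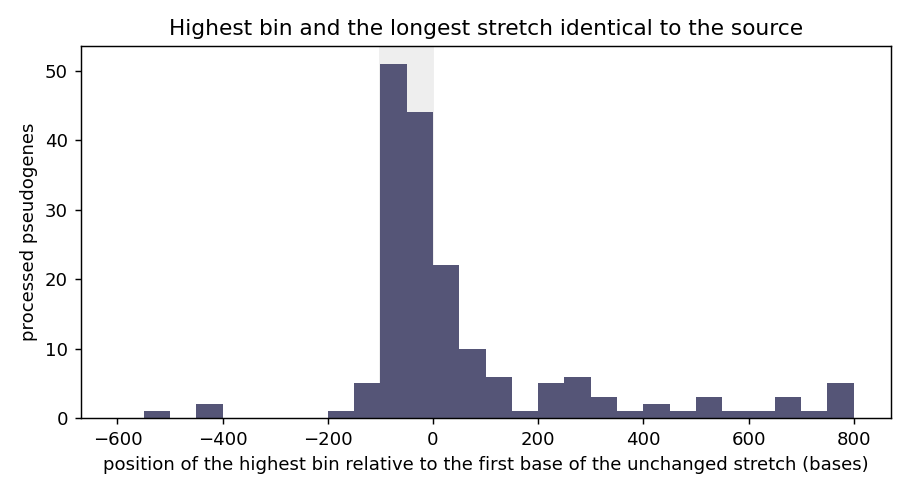
Position of the highest bin of 175 processed pseudogenes relative to the first base of the longest stretch identical to the source (horizontal, bases; values beyond the axis are drawn at its ends), with the window of 100 bases in grey. The highest bin of 95 members lies in the grey window.

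The separate Salmon estimates, which share out reads between transcripts that match them, gave the members a smaller share. Members took 1.11, 1.20 and 1.14% of the estimated reads in the nano-TiO2 libraries, against 1.34, 1.19 and 1.35% in the sham libraries. Of 2437 members with a transcript there, 545 had 0 estimated reads in all 6 libraries, 1467 averaged under 1 and 239 averaged 10 or more. In edgeR, 248 members could be tested: 63 fell (25.4%) and 6 rose (2.42%), against 12.8% and 15.5% of all genes tested. Of these, 58 fell and 5 rose in both the table and the estimates, and none was called in opposite directions. The median over the 248 was −0.47.

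Single copies differed widely between the 2 sources of values. Rps2-ps13, at a mean of 18396 scaled reads in the table, averaged 4.75 estimated reads, and Gapdh-ps15 averaged 0.697. Gm10123 averaged 11143 estimated reads, with a Salmon log2 fold change of −0.67 (edgeR adjusted p = 0.00845). Rpl15-ps3 averaged 11287 estimated reads, with −0.70 (edgeR adjusted p = 0.0105). Gm7336 averaged 10942 estimated reads, with −0.77 (edgeR adjusted p = 0.00766). These last 3 are between 99.8 and 100% identical to their sources. In the same range, Eif4a-ps4 averaged 1.25 estimated reads against 6889 scaled reads, and Rps6-ps4 487 against 6859. Oaz1-ps, 99.7% identical to Oaz1, averaged 7214 estimated reads. Over the 156 Gapdh copies, estimated reads summed to 156.9% of those of Gapdh, against 2321% in the table.

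The 6 largest rises included copies that followed their source and copies that did not. Mdm4-ps, on chromosome X, had 26.1, 13.8 and 14.6 scaled reads in the nano-TiO2 libraries, against 7.62, 6.47 and 3.64 in the sham libraries. It rose by 1.46 beside 1.37 for Mdm4, a regulator of p53. Only 62.9% of its length aligns to Mdm4, so that it was not among the pairs above. Gm42933 rose by 1.67 beside 1.21 for the nuclear receptor gene Nr2c2, and Gm13241 by 1.32 beside 1.22 for Cdv3. These 3 had no overlap between groups. Mdm4-ps lost its call whichever library was left out (adjusted p = 0.0607 to 0.171), and Gm13241 in each case but that of sham replicate 1 (adjusted p = 0.0701 to 0.162). With the length and GC trend removed, Mdm4-ps stood at 0.66, Mdm4 at 0.50 and Nr2c2 at 0.38. None of these passed (limma adjusted p = 0.422, 0.0853 and 0.160), whereas Gm42933, Gm13241 and Cdv3 did.

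The other 3 rose while their sources did not. Gm3791 lies in an intron of Numb, on the same strand, and had 21.7, 29.9 and 7.66 scaled reads in the nano-TiO2 libraries, against 1.69, 2.59 and 2.73 in the sham libraries. It rose by 2.47 ± 0.60 (± SE, limma adjusted p = 0.0173), while its source Eef1akmt4 stood at −0.51. Like Gm14276, Gm3791 reached the mean of 10 only through the nano-TiO2 libraries, at a mean of 19.8 against 2.34 in the sham libraries. Gm7162 had 59.7, 39.2 and 33.7 scaled reads in the nano-TiO2 libraries, against 17.8, 9.05 and 15.5 in the sham libraries. It rose by 1.59 beside a fall of −0.58 in Rangap1, which encodes an activator of the nuclear transport GTPase Ran. With Gm14276, these copies are 85.9 to 88.5% identical to their sources. They share from 0 to 0.513% of their 50-base windows with spliced protein-coding transcripts of any gene. All 3 also rose in the Salmon estimates, by 2.89 for Gm3791, 1.96 for Gm14276 and 2.30 for Gm7162 (edgeR adjusted p = 0.0169, 0.0120 and 0.0128 in that order). In the table, Gm3791 lost its call without nano-TiO2 replicate 1 or 2 (adjusted p = 0.0712 and 0.0607) and Gm7162 without nano-TiO2 replicate 1 or sham replicate 2 (adjusted p = 0.0701 and 0.0505).

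The 6 largest falls were in copies with few reads. Gm6550, a copy of the lactate dehydrogenase gene Ldha, had 8.69, 4.61 and 9.96 scaled reads in the nano-TiO2 libraries, against 27.9, 29.7 and 14.6 in the sham libraries, and fell by 1.51 (SE 0.46, limma adjusted p = 0.0373) beside −0.52 for Ldha. Its call was lost with any single library left out except sham replicate 3. Gm20702, Gm34783, Gm42627, Gm2986 and Gm30708 fell by 1.29 to 1.49. Their sources stood at −0.86 to −0.48. Gm20702 and Gm2986 lost their calls whichever library was left out, and Gm34783 in each case but that of nano-TiO2 replicate 1. Gm42627 lost its call without nano-TiO2 replicate 3 or sham replicate 2. Gm30708 lost it without nano-TiO2 replicate 1 or 2 or sham replicate 1 or 2. None of the 6 passed in limma with the length and GC trend removed. Gm30708 had 97.1% of its scaled reads in 1 bin and stood at −0.20 without that bin (limma adjusted p = 0.876). All 6 had groups without overlap, averaged at most 1.00 estimated read in Salmon and could not be tested there. Gm6550 and Gm20702 reached the mean of 10 only through the sham libraries. Their means were 24.1 and 22.1 there, against 7.75 and 7.33 in the nano-TiO2 libraries.

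Among members with a mean of 50 or more, a few had log2 fold changes apart from that of their source. These were chosen after their values were seen, and the differences between member and source were not tested. Of 7 copies of Ube2l3, a ubiquitin-conjugating enzyme gene, 6 fell, whereas Ube2l3 did not pass. The highest of the 7, Gm10705, had 545, 501 and 486 scaled reads in the nano-TiO2 libraries, against 741, 683 and 835 in the sham libraries. Ube2l3 had 2675, 2665 and 2532 scaled reads in the nano-TiO2 libraries, against 2996, 2986 and 3021 in the sham libraries. Both were without overlap, with log2 fold changes of −0.56 ± 0.14 for Gm10705 (± SE, limma adjusted p = 0.0212) and −0.19 ± 0.11 for Ube2l3 (adjusted p = 0.198). The 7 copies ran from −0.67 to −0.34. They are 349 to 465 bases long, while the bins of Ube2l3 span 5825 bases, so that the copies cover only part of what is summed for Ube2l3.

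Gm14845, 99.3% identical to Vma21 over 306 bases, had 46.7, 39.2 and 42.1 scaled reads in the nano-TiO2 libraries, against 61.8, 76.3 and 76.4 in the sham libraries. It fell by 0.73 (limma adjusted p = 0.0465), whereas Vma21, an assembly factor of the proton pump of acidic organelles, had a log2 fold change near 0 (adjusted p = 0.987). Rps12-ps14 and Rps12-ps17 had values of −0.20 ± 0.27 and −0.33 ± 0.26 that did not pass, beside −0.73 ± 0.17 for Rps12 (± SE). Gm16042 overlaps exons of Glcci1 and rose by 1.27, beside 1.12 for Glcci1 and 0.63 for its source Fbxo5. Gm7908, in an intron of Ptk2 on the same strand, had a value of 0.80 ± 0.36 that did not pass (± SE, limma adjusted p = 0.125). Beside it, Ptk2 stood at 0.95 and its source Hacd2 at 0.14 ± 0.16.

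Members also differed in where they lie. Of them, 1719 lay outside protein-coding genes, 375 in an intron on the opposite strand, 228 in an intron on the same strand and 139 over an exon of another gene. Shared windows are here the 50-base windows of a member found unchanged in a spliced protein-coding transcript of any gene. Members in same-strand introns with 10% or more shared windows gave r = 0.96 with the source and −0.02 with the host gene. There were 121 such trios of member, source and host. In opposite-strand introns, 217 such trios gave 0.93 with the source and −0.02 with the host. For members under 10% shared windows in same-strand introns, r was 0.35 with the source and 0.03 with the host over 37 trios. For members over an exon of another gene, r with the host was 0.60 and with the source 0.90 over 45 trios with 10% or more shared windows. It was 0.73 and 0.90 over 8 trios under 10%. The host is a protein-coding gene that overlaps the member, and need not be the gene of that exon. Where it is, as for Gm16042 and Glcci1, bins of both genes can cover the same bases. Their r is then not one between separate stretches. Strand was not given for the counting in the sources used here, so that reads of a host intron and of a copy within it cannot be told apart.

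At the edge of the rule, Gm13435 and Gm13033 had means just above 10 scaled reads. Gm13435 had 8.69, 11.5 and 8.43 scaled reads in the nano-TiO2 libraries, against 13.5, 14.2 and 3.64 in the sham libraries. Gm13033 had 15.2, 17.3 and 5.36 scaled reads in the nano-TiO2 libraries, against 10.2, 3.88 and 8.19 in the sham libraries. Both overlapped between groups. Just below the limit, Gm6964 had 9.78, 5.76 and 9.19 in the nano-TiO2 libraries, against 9.31, 16.8 and 9.09 in the sham libraries. Bod1-ps had 7.60, 6.91 and 13.0 in the nano-TiO2 libraries, against 12.7, 14.2 and 5.46 in the sham libraries. Values of this size stand for a handful of reads per library, and their groups overlapped.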

How the data were processed

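Input RNA of 3 nano-TiO2 and 3 sham pools of fetal hearts was sequenced. The authors deposited a table of reads per bin of each gene, a coverage signal divided by 1 size factor per library; multiplied back, 100% of values were whole within 0.001 of a read. They also deposited Salmon files, whose headers give estimated counts and TPM per transcript; TPM was not used in a test. HISAT2 2.2.1, Salmon 1.5.2, DESeq2 1.34.0 and build GRCm39 are named in the submitters' processing notes without roles. Coordinates and classes come from GENCODE M21 (GRCm38), by gene ID.

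Bins were summed per gene. The main test was limma 3.58.1 on log2(value + 1) over all genes with a mean of 10 or more, with Benjamini-Hochberg adjustment and a threshold of 0.05. Salmon estimated counts were summed per gene, rounded and tested with edgeR 4.0.16. Sources were found with BLAST+ 2.17.0 among transcripts with 2 or more exons. Scripts were tested on simulated data. Alternatives included DESeq2 1.42.0 and leaving out each library. Named genes were the 4 highest-mean members of each family by symbol, among called members the 6 with the largest rise and the 6 with the largest fall, their sources, and 2 members on each side of the level limit; others were chosen after their values were seen. Members and lists were chosen with earlier results of these data known. With 3 libraries per group, depth was 15735142 to 29740017 reads in the table.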

Additional observations from a re-analysis of the deposited data

How the results depend on the processing

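The count of falls, 676, ranged from 538 to 722 under edgeR, DESeq2, TMM scaling, other pseudocounts and level limits, the leaving out of each gene's highest bin and the leaving out of mitochondrial, haemoglobin and rRNA genes. The count of rises, 28, ranged from 22 to 41 under the same settings, except for 16 without a limit on level. Leaving out the mitochondrial, haemoglobin and rRNA genes kept the authors' scaling, so that it did not change the values of any member. Leaving out single libraries gave 268 to 742 falls and 2 to 29 rises. Library totals as the only scaling gave 0 falls and 180 rises, while 5806 of all genes rose; the median of all members was then −0.0109, that of copies with ribosomal protein sources −0.18, with Gapdh −0.19 and with other sources 0.19, all below the median gene at 0.42. Removing a trend on length and GC content gave 48 falls and medians of −0.069 for all members, −0.15 for ribosomal protein sources, −0.21 for Gapdh and 0.045 for other sources; the cause was not tested. With a replicate block, 417 members fell and 9 rose; with block and trend removal together, 7 fell, 19 rose, and the medians were as with the trend removed. Same-numbered libraries did not deviate together (correlations of −0.36, 0.0056 and −0.077), and 0 of 6 libraries correlated best with their own number. The main test did not use the numbers as pairs. With 3 libraries per group, these correlations cannot exclude that same-numbered pools were handled together. Without sham replicate 2 and nano-TiO2 replicate 3, chosen after seeing the data, 0 fell and 0 rose. The Salmon estimates, in which 248 members could be tested, gave 63 falls and 6 rises, and a median of −0.36 for other sources. Among the named genes, a fold change turned its sign under library totals for Rps6-ps4 (0.17), Rps6 (0.16), Eif4a-ps4 (0.33), Eif4a1 (0.35), Gm15459 (0.37) and Hspa8 (0.37). It turned with the trend removed, with or without the replicate block, for Rps2-ps13 (0.093), Rpl13-ps6 (0.016), Oaz1-ps (0.14), Ftl2-ps (0.052) and Rps6 (0.23). Without sham replicate 3 it turned for Gm15459 (0.0001) and Hspa8 (0.0023). Depth limited the members near the level limit, where a fold change rests on a few reads per library.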

Other observations

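There were 70 members that share no window of 50 bases with any spliced protein-coding transcript, those without a source included. Of these 70, 3 fell and 2 rose in limma, while 12.6% of all genes tested fell and 14.9% rose. Their median level was 16.3 scaled reads, 53 had a log2 fold change below 0 and 17 above, and the median was −0.56. Over the 50 of these with a source aligned over 70% or more of their length, r between the fold change of member and source was 0.21, a description over pairs that share libraries.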
